A study of Arabidopsis thaliana with 12 samples.

Results

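The SWEET genes encode sugar transporters of plant membranes, and their transcripts were followed in Arabidopsis seedlings with reduced nitric oxide (NO). Members were the probe sets listed with 1 gene whose symbol is SAG29, another name of SWEET15, or SWEET followed by a number, and whose mean log2 intensity reached 6 in at least 1 of 4 genotypes. Of 15 such probe sets, 8 met this floor, namely SWEET1, SWEET2, SWEET4, SWEET11, SWEET13, SAG29, SWEET16 and SWEET17. They were 8 of the 7034 genes of the series that met it. The floor is the level below which the study's methods treat array signal as noise, and the members were selected on it, as measured in the same 12 arrays. The family itself was taken up with earlier results of these arrays known, in which SWEET13, SWEET4 and SAG29 stood out. The member with the lowest peak was SWEET2, whose highest genotype mean was 6.90, and the nearest gene outside was SWEET10, whose highest genotype mean was 4.84.

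The arrays compared seedlings of 3 mutants and of their wild type, the accession Col-0. nia1nia2noa1-2 carries mutations in NIA1 and NIA2, the genes of both nitrate reductases, together with the noa1-2 allele of NITRIC OXIDE ASSOCIATED1, which encodes a GTPase of the plastid. nia1nia2 carries only the nitrate reductase mutations, and noa1-2 only the allele of NOA1. All seedlings were whole plants of 15 days, grown on MS medium with 1% sucrose in cycles of 16 h light and 8 h dark and collected 5 h after dawn, and the labels place them after the switch to flowering. Sugar was thus supplied to every genotype. Each genotype had 3 biological replicates, each on its own Affymetrix ATH1 array, numbered 2 to 4 in nia1nia2 and 1 to 3 elsewhere. A lower signal in a whole seedling may mean fewer cells of a type or less RNA per cell, and these cannot be told apart here.

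SWEET proteins let sugars pass down their gradient across a membrane without using energy, unlike the proton-coupled SUC and STP symporters that load sugars into cells against a gradient. The Arabidopsis family falls into clades of related sequence. In clade I are SWEET1, a glucose transporter of the plasma membrane, and SWEET2, which acts at the vacuole of root cells. In clade II is SWEET4, a hexose transporter of veins. Clade III holds the sucrose transporters. Among them, SWEET11 releases sucrose from leaf phloem parenchyma before phloem loading, SWEET13 is a close relative able to act in the same step, and SAG29 is known from senescing leaves and from seeds, where it is induced by abscisic acid (ABA) and osmotic stress. Clade IV holds SWEET16 and SWEET17, which move fructose and other hexoses across the vacuolar membrane.

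The array median of the deposited intensity was 76.1, 79.3 and 82.1 in nia1nia2 and between 80.4 and 86.8 on the other arrays. The replicates of nia1nia2 also spread more widely, with a median SD over all genes of 0.26 on the log2 scale, against 0.11 to 0.12 in the other genotypes. The mutated genes NIA1, NIA2 and NOA1 had no probe set named in the table used here, so the genotype labels could not be checked on them. All comparisons came from 1 limma fit over the 12 arrays, with p-values adjusted by Benjamini-Hochberg over the 7034 genes, and the comparisons with Col-0 share its 3 arrays. A p is given only for the 5 members whose mean reached 6 in every genotype, which are SWEET1, SWEET4, SWEET11, SAG29 and SWEET17. SWEET2, SWEET13 and SWEET16 fell below the floor in some genotype, so their differences are given with a standard error (SE) as a description.

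In nia1nia2noa1-2, 3 of these 5 members rose against Col-0 and none fell (0 also at an unadjusted p under 0.05 and by the methods' t-test), while 10.6% of all genes rose and 11.3% fell. The risers were SAG29, SWEET11 and SWEET1. In nia1nia2, 5 of the 5 rose, while 16.4% of all genes rose and 26.6% fell. SAG29 and SWEET4, which are among the 5, had already stood out in earlier results of these arrays. The counts of called members, here and between mutants, are therefore not independent of the choice of the family. With the methods' t-test, which takes its spread from the 6 arrays compared, 2 of the 5 rose in nia1nia2, SWEET4 and SWEET11, and 0 after Benjamini-Hochberg adjustment, against 4 and 3 in nia1nia2noa1-2. In noa1-2, 1 of the 5 rose, SWEET11 (0 by the methods' t-test after adjustment), while 5.00% of all genes rose and 4.08% fell. The median log2 difference over all genes was -0.03 in nia1nia2noa1-2, -0.10 in nia1nia2 and -0.03 in noa1-2. When each array was centred on its own median, the all-gene median of nia1nia2 moved by 0.10, and the share of raised genes among all calls moved to 51.3% in nia1nia2, against 38.1% without centring, and to 70.4% in noa1-2, against 55.1%. Arrays of a mutant that all lay above the 3 Col-0 arrays were found for 23.0% of all genes in nia1nia2noa1-2, 18.0% in nia1nia2 and 19.6% in noa1-2, and arrays all below them for 26.2%, 29.0% and 21.2% of genes in these mutants. The plot of differences shows every member with its interval.

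**Figure D1:**
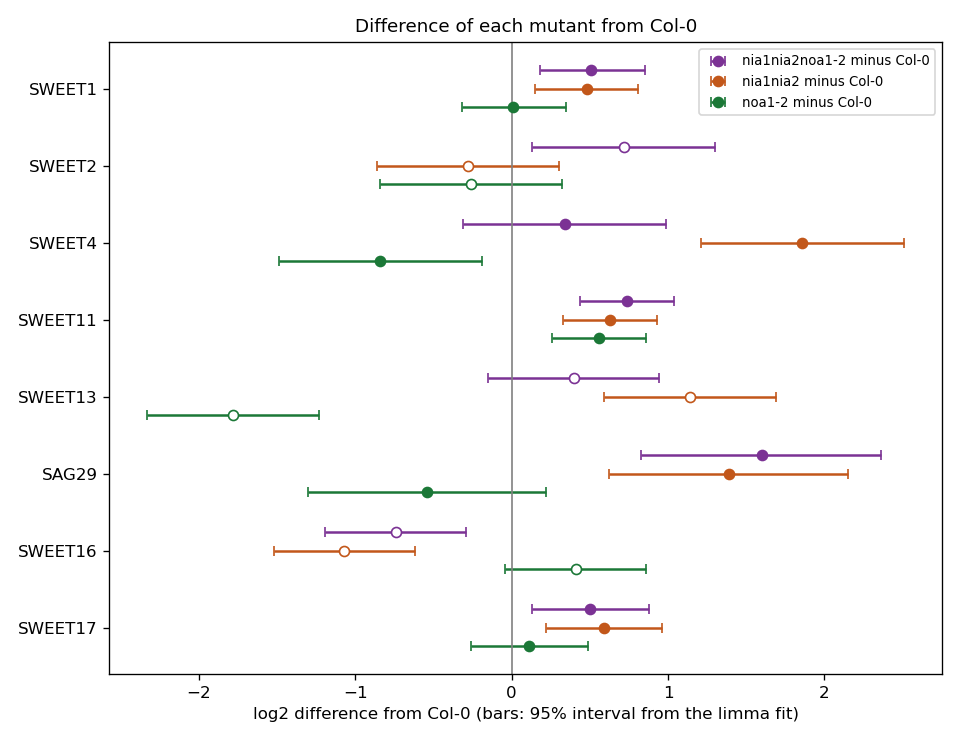
Log2 difference of each mutant from Col-0 for the 8 SWEET genes (x axis, log2 units; points, differences of means of 3 arrays a genotype; bars, 95% intervals of the limma fit; open points, genes below the floor in some genotype, which carry no p). SAG29 stood at 1.60 in nia1nia2noa1-2 and at 1.39 in nia1nia2, and SWEET16 lay below 0 in these mutants, at -0.74 and -1.07.

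SAG29, a sucrose transporter gene of clade III, had its own highest signals in the genotypes that lack nitrate reductase. Its log2 intensity was 9.63, 9.34 and 9.94 in nia1nia2noa1-2, 10.48, 9.25 and 8.55 in nia1nia2, 7.84, 7.41 and 7.25 in noa1-2, and 8.01, 7.90 and 8.21 in Col-0. All arrays of nia1nia2noa1-2 and nia1nia2 lay above all arrays of noa1-2 and Col-0, and the noa1-2 arrays lay just below those of Col-0. SAG29 rose 3.02-fold in nia1nia2noa1-2 (log2 difference 1.60 ± 0.35, SE, adjusted p = 0.00669 by limma) and 2.61-fold in nia1nia2 (1.39 ± 0.35, SE, adjusted p = 0.00684). In noa1-2 the difference from Col-0 was -0.54 ± 0.35 (SE) and did not pass the test (adjusted p = 0.386 by limma). The 3 nia1nia2 arrays lay far apart (SD 0.98), and replicate 2 was the highest. Without that array the difference of nia1nia2 from Col-0 was 0.86, still called with an adjusted p of 0.013 by limma, and with the methods' t-test on the 6 arrays it was not called (unadjusted p = 0.0722).

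SWEET13 had its lowest signal in noa1-2. The arrays gave a log2 intensity of 7.86, 7.07 and 8.08 in nia1nia2noa1-2, 8.78, 8.47 and 7.99 in nia1nia2, 5.65, 5.56 and 5.27 in noa1-2, and 7.17, 7.06 and 7.59 in Col-0. Every noa1-2 array was below 6 and below every other array, and every nia1nia2 array was above every Col-0 array, while nia1nia2noa1-2 overlapped with Col-0. The differences from Col-0 were 0.40 ± 0.25 in nia1nia2noa1-2, 1.14 ± 0.25 in nia1nia2 and -1.78 ± 0.25 in noa1-2 (SE), the last a signal 3.43-fold lower. Because noa1-2 was below the floor, the size of that fall is not exact. In nia1nia2noa1-2 replicate 2 was the low array at 7.07, and without it the difference from Col-0 was 0.70. Without replicate 3 it was 0.19.

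SWEET11 was the only one of the 5 tested members to pass the limma test in every mutant. With the methods' t-test after Benjamini-Hochberg adjustment, SWEET11 passed only in nia1nia2noa1-2 (adjusted p = 0.077 in nia1nia2 and 0.0678 in noa1-2). Its log2 intensity was 11.24, 11.06 and 11.18 in nia1nia2noa1-2, 11.17, 11.24 and 10.76 in nia1nia2, 10.82, 10.98 and 11.16 in noa1-2, and 10.37, 10.37 and 10.53 in Col-0. The 9 mutant arrays all lay above the 3 Col-0 arrays, and the mutants overlapped with each other. SWEET11 rose 1.67-fold in nia1nia2noa1-2 (0.74 ± 0.14, SE, adjusted p = 0.00245 by limma), 1.55-fold in nia1nia2 (0.63 ± 0.14, SE, adjusted p = 0.00282) and 1.48-fold in noa1-2 (0.56 ± 0.14, SE, adjusted p = 0.0241). The call in noa1-2 was the weakest and was lost when Col-0 replicate 1, Col-0 replicate 2, noa1-2 replicate 2 or noa1-2 replicate 3 was left out (adjusted p = 0.0852, 0.0844, 0.0871 and 0.0948 by limma). SWEET12, the close copy of SWEET11, was not named in the table, and whether its transcript adds to the SWEET11 signal was not tested.

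**Figure D2:**
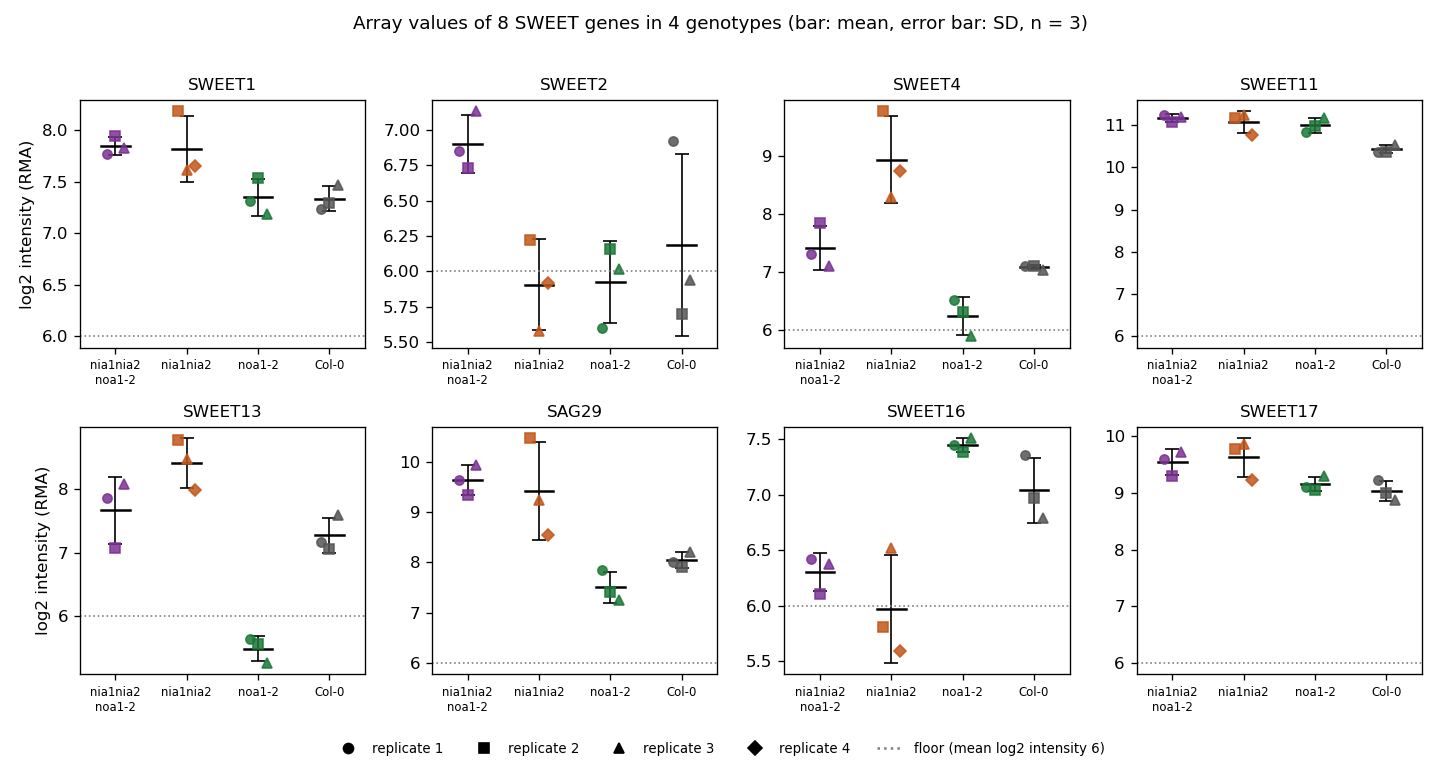
Log2 intensity (y axis) of each SWEET gene on each of the 12 arrays, by genotype (x axis; symbols, replicate numbers of the labels; bar and error bar, mean and SD of 3 arrays; dotted line, the floor of 6; each panel has its own scale). SAG29 was at 8.55 or higher on all arrays of nia1nia2noa1-2 and nia1nia2, and SWEET13 was below 6 on every noa1-2 array.

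Of the genotype pairs, nia1nia2 and noa1-2 lay furthest apart for SWEET4, of clade II. The log2 intensities were 7.31, 7.84 and 7.10 in nia1nia2noa1-2, 9.77, 8.30 and 8.75 in nia1nia2, 6.52, 6.32 and 5.89 in noa1-2, and 7.10, 7.10 and 7.04 in Col-0. All nia1nia2 arrays were the highest of the 12 and all noa1-2 arrays the lowest, and nia1nia2noa1-2 overlapped with Col-0. SWEET4 rose 3.63-fold in nia1nia2 (1.86 ± 0.30, SE, adjusted p = 0.000358 by limma). Its arrays spread far more in nia1nia2 (SD 0.75) than in Col-0 (SD 0.03), and the SE is drawn from all genotypes. With the methods' t-test the rise did not pass after Benjamini-Hochberg adjustment (adjusted p = 0.0701). In nia1nia2noa1-2 the difference was 0.34 ± 0.30 (SE, adjusted p = 0.458 by limma). In noa1-2 it was -0.84 ± 0.30 (SE), with no overlap of arrays, and it missed the threshold (adjusted p = 0.106 by limma). With the 6 arrays of noa1-2 and Col-0 fitted alone, where the wide spread of nia1nia2 does not enter, the same difference passed (adjusted p = 0.0024 by limma). Without nia1nia2 replicate 2 or nia1nia2 replicate 3 it passed as well (adjusted p = 0.0216 and 0.0467 by limma). With any other single array left out it did not pass (adjusted p from 0.0706 to 0.306 by limma).

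In clade I, SWEET1 changed little in size. Its signal on the log2 scale was 7.77, 7.94 and 7.83 in nia1nia2noa1-2, 8.18, 7.61 and 7.65 in nia1nia2, 7.31, 7.54 and 7.19 in noa1-2, and 7.24, 7.29 and 7.47 in Col-0. The arrays of nia1nia2noa1-2 and nia1nia2 lay above those of noa1-2 and Col-0, and noa1-2 overlapped with Col-0. SWEET1 rose 1.43-fold in nia1nia2noa1-2 (0.51 ± 0.15, SE, adjusted p = 0.0299 by limma) and 1.39-fold in nia1nia2 (0.48 ± 0.15, SE, adjusted p = 0.0228), and in noa1-2 its difference was 0.01 ± 0.15 (SE, adjusted p = 0.976). The rises sat close to the threshold. Without nia1nia2 replicate 2 the difference of nia1nia2 was 0.30 (adjusted p = 0.0835 by limma), and without Col-0 replicate 1 the adjusted p was 0.106 in nia1nia2noa1-2 and 0.0776 in nia1nia2.

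SWEET2 had its highest signal in nia1nia2noa1-2. Its log2 intensity was 6.85, 6.73 and 7.13 there, 6.22, 5.58 and 5.92 in nia1nia2, 5.60, 6.16 and 6.02 in noa1-2, and 6.92, 5.70 and 5.94 in Col-0. Except for Col-0 replicate 1, at 6.92, every array of nia1nia2noa1-2 was above every array of the other genotypes, and many of the others were under the floor. The differences from Col-0 were 0.72 ± 0.27 in nia1nia2noa1-2, -0.28 ± 0.27 in nia1nia2 and -0.26 ± 0.27 in noa1-2 (SE). Without Col-0 replicate 1 they were 1.08, 0.09 and 0.11, so the sign in nia1nia2 and noa1-2 rests on that array.

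In clade IV, SWEET16 was the only member whose mean was below that of Col-0 in both nia1nia2noa1-2 and nia1nia2. The values were, in log2 intensity, 6.42, 6.11 and 6.38 in nia1nia2noa1-2, 5.81, 6.52 and 5.59 in nia1nia2, 7.45, 7.38 and 7.51 in noa1-2, and 7.36, 6.97 and 6.79 in Col-0. The arrays of nia1nia2noa1-2 and nia1nia2 lay below all arrays of noa1-2 and Col-0, and the noa1-2 arrays lay just above those of Col-0. The differences from Col-0 were -0.74 ± 0.21 in nia1nia2noa1-2, -1.07 ± 0.21 in nia1nia2 and 0.41 ± 0.21 in noa1-2 (SE), and the signal was 1.67-fold and 2.09-fold lower in nia1nia2noa1-2 and in nia1nia2.

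SWEET17, its partner at the vacuolar membrane, ran the other way by a small amount. Its log2 intensity was 9.60, 9.29 and 9.73 in nia1nia2noa1-2, 9.78, 9.87 and 9.23 in nia1nia2, 9.11, 9.05 and 9.29 in noa1-2, and 9.23, 9.00 and 8.88 in Col-0. The arrays of nia1nia2noa1-2 were all above those of Col-0, those of nia1nia2 met them at 9.23, and those of noa1-2 overlapped with them. SWEET17 rose 1.51-fold in nia1nia2 (0.59 ± 0.17, SE, adjusted p = 0.0148 by limma). In nia1nia2noa1-2 the difference was 0.50 ± 0.17 (SE), just outside the threshold (adjusted p = 0.0536 by limma), and in noa1-2 it was 0.11 ± 0.17 (SE, adjusted p = 0.745). The mutants fell on different sides of the threshold but were not shown to differ, since SWEET17 in nia1nia2noa1-2 differed from nia1nia2 by -0.09 ± 0.17 (SE, adjusted p = 0.771 by limma). The call in nia1nia2 was lost without Col-0 replicate 3 or nia1nia2 replicate 2 (adjusted p = 0.0637 and 0.051 by limma), and the value in nia1nia2noa1-2 passed without nia1nia2noa1-2 replicate 2, nia1nia2 replicate 3 or nia1nia2 replicate 4 (adjusted p = 0.0474, 0.0364 and 0.0102 by limma).

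The other 8 family genes named in the table lay below the floor in all genotypes. SWEET3, SWEET6, SWEET7, SWEET8, SWEET9, SWEET10 and SWEET14, and SWEET5, which the table lists under its older name AtVEX1, had genotype means between 3.89 and 4.84, and none of their 96 values exceeded 4.94. The largest difference between genotype means of any of these 8 genes was 0.34. Several of them are known from reproductive organs, such as SWEET9 of nectaries and SWEET8 of pollen and its surrounding tissue. SWEET10, the neighbour of SWEET13 on the chromosome, had means between 4.63 and 4.84 in the same arrays in which SWEET13 had means between 5.49 and 8.41. SWEET14, the closest relative of SWEET13, had means of 4.57 in nia1nia2noa1-2, 4.59 in nia1nia2, 4.31 in noa1-2 and 4.25 in Col-0. Cross-hybridization between the copies was not tested.

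**Figure D3:**
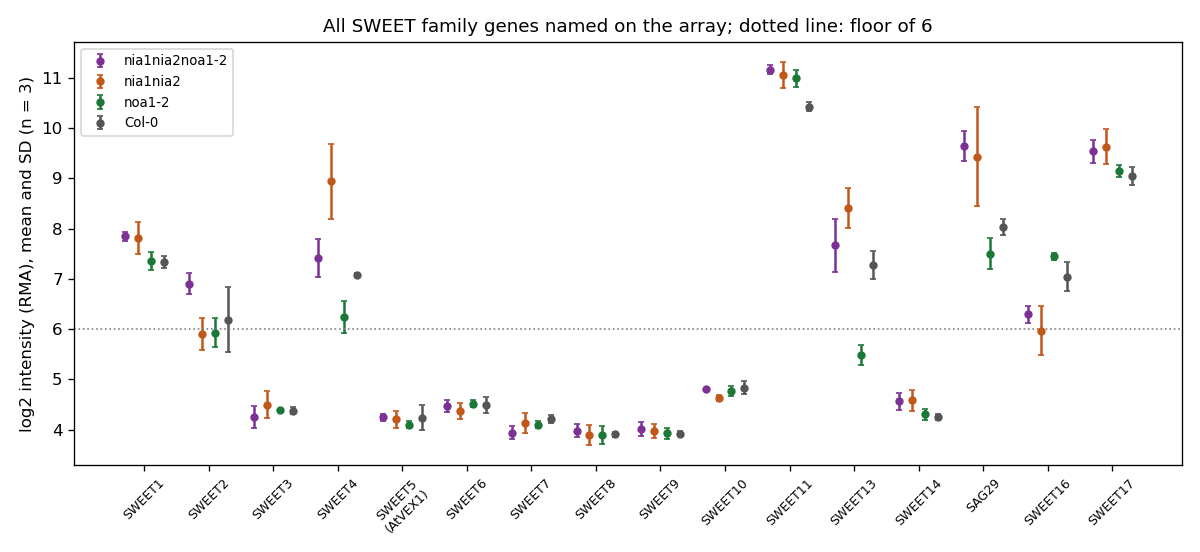
Mean log2 intensity with SD (y axis, n = 3 arrays a genotype) of the 16 SWEET family genes named in the table, by genotype (colours); the dotted line is the floor of 6. The 8 genes below the floor had means between 3.89 and 4.84; levels of different probe sets are not comparable with each other.

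Setting the mutants against each other asked what each mutation added to the other. Adding noa1-2 to nia1nia2 lowered SWEET4, which was 2.87-fold lower in nia1nia2noa1-2 than in nia1nia2 (-1.52 ± 0.30, SE, adjusted p = 0.00688 by limma). It was the only one of the 5 tested members to pass there, beside 5.19% of all genes that fell and 9.97% that rose. With the 6 arrays of these genotypes fitted alone it did not pass (adjusted p = 0.066 by limma). The intervals of the other tested members in this comparison reached from -0.55 to 0.97 for SAG29, from -0.30 to 0.37 for SWEET1, from -0.20 to 0.40 for SWEET11 and from -0.46 to 0.29 for SWEET17. SWEET13 differed by -0.74 ± 0.25 (SE) and SWEET2 by 1.00 ± 0.27 (SE), the SWEET2 arrays of nia1nia2noa1-2 lying above all those of nia1nia2. Of all genes, 17.6% had the arrays of nia1nia2noa1-2 wholly above those of nia1nia2 and 9.82% wholly below. Median centring shifted the all-gene median by -0.11 in this comparison and turned the share of raised genes among calls to 39.2%, against 65.8% without it.

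Adding nia1nia2 to noa1-2 raised 3 of the 5 tested members, while 9.40% of all genes rose and 9.17% fell. Median centring set the raised share of those calls at 39.6%, against 50.6% without it. SAG29 was 4.40-fold higher in nia1nia2noa1-2 than in noa1-2 (2.14 ± 0.35, SE, adjusted p = 0.00115 by limma). SWEET4 was 2.26-fold higher (1.17 ± 0.30, SE, adjusted p = 0.0155) and SWEET1 1.41-fold higher (0.50 ± 0.15, SE, adjusted p = 0.0384 by limma). By the methods' t-test after Benjamini-Hochberg adjustment only 1 of the 5 rose, SAG29. The SWEET1 call was lost with no filter and with median centring (adjusted p = 0.0529 and 0.0801 by limma). That of SWEET4 was lost without nia1nia2noa1-2 replicate 2 or noa1-2 replicate 3 (adjusted p = 0.081 and 0.0708 by limma). SWEET13 differed by 2.18 ± 0.25 (SE) and SWEET16 by -1.14 ± 0.21 (SE), each with no overlap of arrays, as 22.0% of all genes had the arrays of nia1nia2noa1-2 wholly above those of noa1-2 and 24.1% wholly below. Between nia1nia2 and noa1-2, 4 of the 5 were higher in nia1nia2, namely SWEET4 (2.70 ± 0.30, SE, adjusted p = 1.77e-05 by limma), SAG29 (1.93 ± 0.35, SE, adjusted p = 0.000728), SWEET17 (0.48 ± 0.17, SE, adjusted p = 0.0401) and SWEET1 (0.47 ± 0.15, SE, adjusted p = 0.0256). The calls of SWEET17 and SWEET1 were lost with the 6 arrays fitted alone (adjusted p = 0.0911 and 0.0953 by limma), with array weights (adjusted p = 0.111 and 0.0734), with the methods' t-test, and without nia1nia2 replicate 2 (0.40 and 0.28, adjusted p = 0.118 and 0.098 by limma), among other single arrays. Of all genes, 17.2% were higher and 25.8% lower in nia1nia2 than in noa1-2. SWEET13 differed by 2.92 ± 0.25 (SE), a 7.57-fold higher signal in nia1nia2, and SWEET16 by -1.47 ± 0.21 (SE), again without overlap (19.4% of all genes wholly above and 28.1% wholly below). These sizes are not exact, since SWEET13 in noa1-2 and SWEET16 in nia1nia2 were below the floor.

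The levels thus fell into a few orders. For SAG29, nia1nia2noa1-2 and nia1nia2 led without a difference beyond their spread, followed by Col-0 and noa1-2. SWEET1 had nia1nia2noa1-2 and nia1nia2 on top in the same way, with noa1-2 and Col-0 below and overlapping. SWEET17 also had these mutants on top by their means, with nia1nia2 (9.63) ahead of nia1nia2noa1-2 (9.54), then noa1-2 and Col-0. Its nia1nia2 arrays overlapped with those of noa1-2 and met those of Col-0, and nia1nia2noa1-2 did not pass against noa1-2 (0.39, adjusted p = 0.144 by limma). SWEET4 ran from nia1nia2 through nia1nia2noa1-2 and Col-0, which overlapped, down to noa1-2, and SWEET13 followed the same order of means. SWEET16 showed the reverse, with noa1-2 on top, then Col-0, then nia1nia2noa1-2 and nia1nia2, which overlapped. If the mutations acted independently, the log2 difference of the triple mutant from Col-0 would equal those of nia1nia2 and of noa1-2 added up. A departure from this was called for none of the 5 tested members by limma, and 1 of them, SWEET11, had an unadjusted p under 0.05 (-0.46 ± 0.20, SE, unadjusted p = 0.0362, adjusted p = 0.183). Without nia1nia2 replicate 4 the departure of SWEET11 was -0.61 and passed (adjusted p = 0.0305). Over all genes, 2.46% departed upward and 1.01% downward. Median centring shifted the all-gene median of the departure by -0.16 and set the upward share of calls at 28.7%, against 70.9% without it. For SAG29 the departure was 0.75 ± 0.50 (SE, adjusted p = 0.399 by limma), and without nia1nia2 replicate 2 it was 1.28 and passed (adjusted p = 0.0417).

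Across the 12 arrays SAG29 moved most closely with SWEET1 (Pearson r = 0.89) and SWEET13 (r = 0.83), and with the genotype means removed r was 0.68 and 0.77. SWEET4 and SWEET13 had r = 0.83 over the arrays, but 0.04 within genotypes. SWEET16 ran against SWEET4 (r = -0.86), SWEET1 (r = -0.82), SWEET13 (r = -0.80) and SAG29 (r = -0.78), and with genotype means removed these values were -0.50, -0.47, 0.21 and 0.08. SWEET16 and SWEET17 had r = -0.48 over all arrays and 0.81 within genotypes. These values are descriptions over arrays that share 4 genotypes, and arrays of 1 genotype are not spread evenly, as nia1nia2 varied most.

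The genes whose signals were most like those of each member were taken from all 7034 genes by r over the 12 arrays. For SAG29 they were AT2G21820 (r = 0.966), AT3G17520 (r = 0.953), a LEA family protein, AT3G56260, CHIL, a helper protein of flavonoid synthesis, and AT1G09310. AT3G17520 also headed the list of SWEET1 (r = 0.954), before AT3G02480 (r = 0.934), another LEA family protein, AT2G39020, an acyltransferase, AT4G18650 and QQT2. The list of SWEET4 was led by ALDH7B4 (r = 0.975), a stress-induced aldehyde dehydrogenase, and AT1G28260 (r = 0.970). It also held RD2, a desiccation-responsive gene (r = 0.966), LTI30, a dehydrin induced by cold (r = 0.964), and AT2G43320 (r = 0.955). SWEET13 was closest to AT5G43150 (r = 0.983) and to the lectin gene EULS3 (r = 0.940), followed by AT1G48750 and AT1G47400, and CHIL closed its list of 5 (r = 0.929). With the genotype means removed, r with SWEET13 ranged from 0.45 for EULS3 to 0.84 for AT1G47400.

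SWEET16, whose means ran in the opposite order, was closest to AT5G64380 (r = 0.982) and AT5G08650 (r = 0.978). SWEET17 was closest to AT3G56200 (r = 0.917), of an amino acid transporter family, BGLU40 (r = 0.908), a beta-glucosidase, and further down CaS, the calcium-sensing protein of thylakoids (r = 0.880). SWEET11 had looser company, led by AT2G31670 (r = 0.893) and AT4G38150 (r = 0.881), a pentatricopeptide repeat protein, with rbcL, the plastid gene of the large Rubisco subunit, at r = 0.869. With the genotype means removed, these 3 values were 0.88, 0.36 and 0.44. SWEET2 was least matched, with AT5G13400 at r = 0.870. Ranked by Spearman's rho instead, between 1 and 3 of the 5 genes of a member stayed among its top 5.

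Other sugar genes were taken from lists of transporters and of sucrose enzymes. Of 57 loci, 13 were named in the table and 8 met the floor. In nia1nia2noa1-2, 3 of these 8 rose and 1 fell, in nia1nia2 3 rose and 1 fell, and in noa1-2 none was called (0 by limma, 0 at an unadjusted p under 0.05). Of all genes, 10.6% rose and 11.3% fell in nia1nia2noa1-2, 16.4% and 26.6% in nia1nia2, and 5.00% and 4.08% in noa1-2. With the methods' t-test after Benjamini-Hochberg adjustment, 1 of the 8 rose and 0 fell in nia1nia2. The median difference of the 8 genes was 0.14 in nia1nia2noa1-2, 0.30 in nia1nia2 and -0.04 in noa1-2, against -0.03, -0.10 and -0.03 over all genes. No sucrose/H+ symporter of the SUC family was named in the table, so the step that follows SWEET11 in phloem loading was not measured here.

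SFP1, a sugar transporter gene of the ERD6-like group known from senescing leaves, had a log2 intensity of 10.36, 10.29 and 10.16 in nia1nia2noa1-2, 10.13, 9.78 and 10.11 in nia1nia2, 9.48, 9.33 and 9.11 in noa1-2, and 9.57, 9.17 and 8.91 in Col-0. It rose 2.08-fold in nia1nia2noa1-2 (1.05 ± 0.17, SE, adjusted p = 0.000745 by limma) and 1.73-fold in nia1nia2 (0.79 ± 0.17, SE, adjusted p = 0.00212). Its tandem neighbour SFP2 had differences of 0.07 ± 0.17 in nia1nia2noa1-2 and -0.33 ± 0.17 in nia1nia2 (SE), which did not pass, and whether probes of the 2 copies cross-hybridize was not tested. AT1G62660, a glycosyl hydrolase of sucrose breakdown, averaged 10.19 ± 0.24 in nia1nia2noa1-2, 10.19 ± 0.12 in nia1nia2, 9.18 ± 0.28 in noa1-2 and 9.33 ± 0.16 in Col-0 (SD, n = 3). It rose by 0.86 in both nia1nia2noa1-2 and nia1nia2 (adjusted p = 0.00233 and 0.00098 by limma).

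AT5G61520, a sugar:proton symporter, averaged 7.76 ± 0.29 in nia1nia2noa1-2, 7.55 ± 0.02 in nia1nia2, 7.13 ± 0.24 in noa1-2 and 6.94 ± 0.25 in Col-0 (SD, n = 3), and rose by 0.82 and 0.60 in nia1nia2noa1-2 and nia1nia2 (adjusted p = 0.00439 and 0.0117 by limma). The call in nia1nia2 was lost without Col-0 replicate 1 (0.47, adjusted p = 0.0598 by limma) and with array weights by genotype (adjusted p = 0.103). The sugar gene that fell was ATSPS4F, a sucrose phosphate synthase, an enzyme of sucrose synthesis. It averaged 8.22 ± 0.17 in nia1nia2noa1-2, 7.91 ± 0.46 in nia1nia2, 9.39 ± 0.15 in noa1-2 and 9.33 ± 0.28 in Col-0 (SD, n = 3), and its differences from Col-0 were -1.11 ± 0.21 in nia1nia2noa1-2 (SE, adjusted p = 0.00212 by limma) and -1.43 ± 0.21 in nia1nia2 (SE, adjusted p = 0.000159). For these 4 genes the arrays of nia1nia2noa1-2 and nia1nia2 lay apart from those of Col-0, as the plot of other sugar genes shows. The tonoplast transporter gene TMT1 did not pass in any mutant. TMT2 differed by 0.43 ± 0.18 in nia1nia2 (SE, adjusted p = 0.0714 by limma) and passed without nia1nia2 replicate 4 (0.65, adjusted p = 0.00222), with the replicate number as a block (0.65, adjusted p = 0.00608) and with each array centred on its median (0.52, adjusted p = 0.0473).

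**Figure D4:**
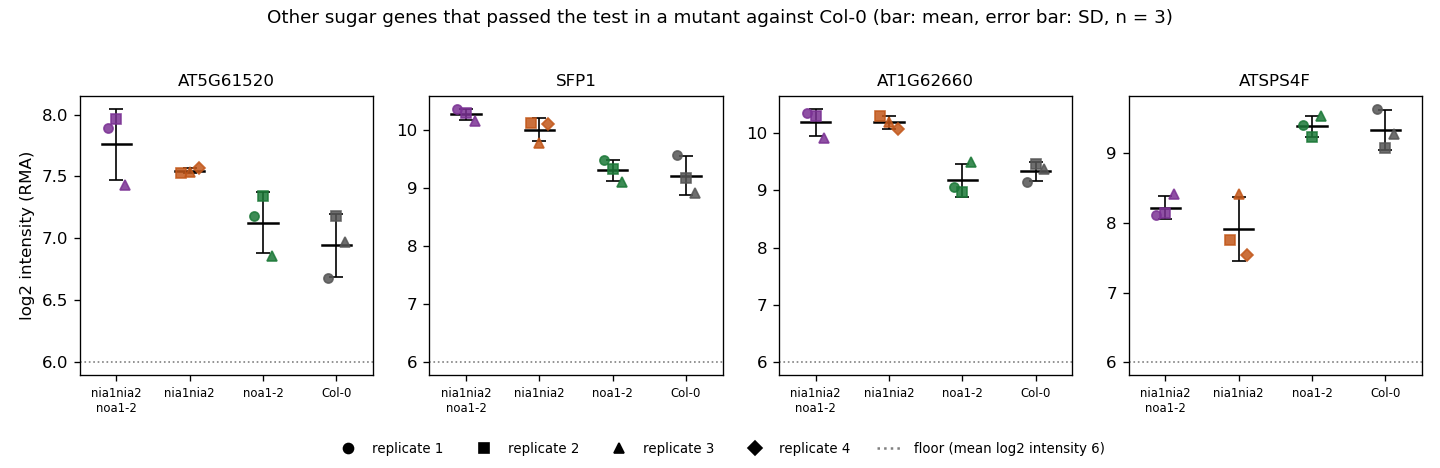
Log2 intensity (y axis) of 4 sugar genes outside the SWEET family on each array, by genotype (x axis; symbols, replicate numbers; bar and error bar, mean and SD of 3 arrays; dotted line, the floor of 6; each panel has its own scale). SFP1, AT1G62660 and AT5G61520 were higher, and ATSPS4F lower, in nia1nia2noa1-2 and nia1nia2 than in Col-0.

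Senescence and ABA genes were listed because SAG29 is known to answer to both. Of 17 senescence loci, 3 were named and only WRKY6, a transcription factor of senescence and defence, met the floor. WRKY6 rose by 0.68 ± 0.19 in nia1nia2noa1-2 (SE, adjusted p = 0.0212 by limma) and by 1.21 ± 0.19 in nia1nia2 (SE, adjusted p = 0.000267), and the first call was lost without nia1nia2noa1-2 replicate 2 (0.44, adjusted p = 0.0966), Col-0 replicate 1 (0.66, adjusted p = 0.0671) or Col-0 replicate 3 (0.63, adjusted p = 0.0731). Of 15 ABA and osmotic loci, COR15A and LEA4-5 were named. COR15A, a cold-induced chloroplast protein gene, did not pass in any mutant. LEA4-5, a late embryogenesis abundant protein gene, averaged 7.03 in nia1nia2noa1-2, 7.41 in nia1nia2, 5.57 in noa1-2 and 5.59 in Col-0, and since it met the floor only where it was high, its differences of 1.44 and 1.82 are given without a call.

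Few markers of cell types and organs were named in the table, and those that were give single genes, not lists. Of the green leaf markers 1 of 7 was named, LHCB4.3, an antenna protein gene of photosystem II, and it averaged 7.43 ± 0.06 in nia1nia2noa1-2, 7.46 ± 0.12 in nia1nia2, 8.79 ± 0.10 in noa1-2 and 9.11 ± 0.22 in Col-0 (SD, n = 3). It fell by 1.67 in nia1nia2noa1-2 (adjusted p = 2.59e-06 by limma) and by 1.64 in nia1nia2 (adjusted p = 1.56e-06). Of 4 guard cell markers FMA, also called FAMA, was named, and it averaged 6.35 in nia1nia2noa1-2, 6.08 in nia1nia2, 6.61 in noa1-2 and 6.68 in Col-0, with a fall of 0.60 in nia1nia2 (adjusted p = 0.000949 by limma) and a difference of -0.33 ± 0.11 in nia1nia2noa1-2 (SE, adjusted p = 0.0506). Of 9 root markers EXPA18 and EXPA7, genes of root hair cells, were named. EXPA18 averaged 5.92 in nia1nia2noa1-2, 6.12 in nia1nia2, 5.66 in noa1-2 and 6.36 in Col-0. Its arrays lay wholly below those of Col-0 in nia1nia2noa1-2 and noa1-2, as did those of 26.2% and 21.2% of all genes. The largest difference was -0.70 ± 0.25 in noa1-2 (SE). Since EXPA18 met the floor only in nia1nia2 and Col-0, where it was high, this difference is given without a call. EXPA7, below the floor throughout, had 4.93, 5.02 and 5.12 in nia1nia2noa1-2, 5.66, 5.29 and 4.82 in nia1nia2, 4.73, 4.85 and 5.13 in noa1-2, and 5.67, 5.70 and 5.71 in Col-0. The highest mutant array, at 5.66, lay just under the lowest Col-0 array, at 5.67. Signals this low are treated as noise by the methods, so no difference is read from them. None of the 7 flower markers and none of the 5 phloem markers was named in the table. The part of organ or cell composition in the SWEET values was not tested.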

How the data were processed

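RNA of 12 whole-seedling samples was measured on Affymetrix ATH1 arrays, 3 per genotype. According to the methods, the authors background corrected and normalized the arrays by RMA with a custom chip definition file, and the labels name limma with no version. The deposited values are linear intensities, 1 per probe set and array, whose log2 has 2 decimals. Since their probe-set names are those of Affymetrix, which definition file made them stays unknown. The planned test had assumed log2 values, and the intensities were therefore log2 transformed first. RMA levels of different probe sets cannot be compared, and similar probes can share signal.

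Genes were named from the array's annotation: 13513 of the 22810 probe sets had 1 gene, 503 had several genes, 8730 had no gene, and 64 were controls. Only the first kind was used, and symbols were updated through the RefSeq gene table of TAIR10.1 (13436 matched). The probe set with the highest mean stood for a gene with several. Of 13356 genes, the 7034 whose mean reached 6 (log2) in some genotype entered 1 fit of all arrays by limma 3.58.1 under R 4.3.3 (lmFit, eBayes; 8 residual degrees of freedom), with Benjamini-Hochberg adjustment and a threshold of 0.05. A tested gene can lie below the floor in a genotype. Replicates of a genotype had equal log2 values in 1.32% to 3.98% of probe sets, so no array was a copy. The procedure was tested on simulated data. Figures were drawn with matplotlib 3.10.9 (Python 3.11.15).

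The text names the SWEET family genes, up to 5 genes most like each member, and called genes of the lists, with TMT1, TMT2, SFP2, COR15A, EXPA18 and EXPA7 added after their values were seen. The members and lists were chosen with earlier results of these data known. The alternatives were other floors, the methods' t-test, limma on the arrays compared, array weights, median centring, quantile normalization, the replicate number as a block, a trend in eBayes, the mean over probe sets, and each array left out.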

Additional observations from a re-analysis of the deposited data

Results flagged for a closer look

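SWEET2 was picked out by a contrast between backgrounds. All 3 arrays of nia1nia2noa1-2 (6.85, 6.73 and 7.13) lay above the mean of nia1nia2 (5.91), while all 3 arrays of noa1-2 (5.60, 6.16 and 6.02) lay below the mean of Col-0 (6.19). The departure from additivity was 1.26 ± 0.38 (SE, log2 scale). The difference was not tested, because SWEET2 lay below the floor in nia1nia2 and noa1-2. It leans on Col-0 replicate 1, whose value of 6.92 was far above the 5.70 and 5.94 of the other Col-0 arrays. Without that array it was 0.89, and the difference of noa1-2 from Col-0 turned to 0.11, so that the lower signal of noa1-2 rests on that array.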

How the results depend on the processing

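Of 2793 values recomputed under alternatives, 2513 kept their direction and their side of the threshold, or a count within 1.5 times. Each genotype had 3 arrays. The rises of SAG29 and SWEET11 in nia1nia2noa1-2 against Col-0 were called in every alternative run. Values in parentheses are log2 differences, and only values that crossed the threshold, turned sign or moved a count by over 1.5 times are given; the cause was not tested. Of 1001 values of single list genes, 12 lost a call and 26 gained one, counts that include LEA4-5 and EXPA18, for which no call is given here. After Benjamini-Hochberg adjustment of the methods' t-test SFP1, ATSPS4F and AT5G61520 in nia1nia2 and AT5G61520 and WRKY6 in nia1nia2noa1-2 lost theirs. FMA in nia1nia2noa1-2 (-0.33) gained one in limma on the 6 arrays (adjusted p = 0.0253) and with array weights (adjusted p = 0.0108), among other alternatives. The replicate numbers were not shown to pair the samples, and these values cannot exclude it. Of 15 same-numbered pairs, 4 had deviations from the genotype means that correlated over 0.1 (r from -0.11 to 0.28), so the block is only a hint from the data. With no filter on dim genes limma calls were lost for SWEET1 (0.50, adjusted p = 0.0529) in nia1nia2noa1-2 against noa1-2, SWEET17 (0.48, adjusted p = 0.0552) in nia1nia2 against noa1-2. With a floor of 7 limma calls were gained for SWEET17 (0.50, adjusted p = 0.0483) in nia1nia2noa1-2 against Col-0. With the methods' t-test at an unadjusted p under 0.05, calls were 1310 raised and 1449 lowered for nia1nia2noa1-2 against Col-0, 1076 raised and 1109 lowered for noa1-2 against Col-0, 1256 raised and 1322 lowered for nia1nia2noa1-2 against noa1-2. With the methods' t-test at an unadjusted p under 0.05 calls were lost for SWEET1 (0.48) and SAG29 (1.39) and SWEET17 (0.59) in nia1nia2 against Col-0, SWEET1 (0.47) and SWEET17 (0.48) in nia1nia2 against noa1-2. With the methods' t-test at an unadjusted p under 0.05 calls were gained for SWEET17 (0.50) in nia1nia2noa1-2 against Col-0, SWEET4 (-0.84) in noa1-2 against Col-0. With the methods' t-test after Benjamini-Hochberg adjustment, calls were 370 raised and 527 lowered for nia1nia2 against Col-0, other sugar genes 1 raised and 0 lowered for nia1nia2 against Col-0, 215 raised and 146 lowered for noa1-2 against Col-0, 1 raised and 0 lowered for nia1nia2noa1-2 against nia1nia2, 492 raised and 670 lowered for nia1nia2 against noa1-2. With the methods' t-test after Benjamini-Hochberg adjustment calls were lost for SWEET1 (0.48) and SWEET4 (1.86) and SWEET11 (0.63) and SAG29 (1.39) and SWEET17 (0.59) in nia1nia2 against Col-0, SWEET11 (0.56) in noa1-2 against Col-0, SWEET4 (-1.52) in nia1nia2noa1-2 against nia1nia2, SWEET1 (0.50) and SWEET4 (1.17) in nia1nia2noa1-2 against noa1-2, SWEET1 (0.47) and SAG29 (1.93) and SWEET17 (0.48) in nia1nia2 against noa1-2. With limma on the 6 arrays compared, calls were 1227 raised and 1312 lowered for nia1nia2noa1-2 against Col-0, 1241 lowered for nia1nia2 against Col-0, 834 raised and 809 lowered for noa1-2 against Col-0, 60 raised and 40 lowered for nia1nia2noa1-2 against nia1nia2, 1082 raised and 1164 lowered for nia1nia2noa1-2 against noa1-2. With limma on the 6 arrays compared calls were lost for SWEET1 (0.48, adjusted p = 0.08) and SWEET17 (0.59, adjusted p = 0.0526) in nia1nia2 against Col-0, SWEET4 (-1.52, adjusted p = 0.066) in nia1nia2noa1-2 against nia1nia2, SWEET1 (0.47, adjusted p = 0.0953) and SWEET17 (0.48, adjusted p = 0.0911) in nia1nia2 against noa1-2. With limma on the 6 arrays compared calls were gained for SWEET17 (0.50, adjusted p = 0.016) in nia1nia2noa1-2 against Col-0, SWEET4 (-0.84, adjusted p = 0.0024) and SAG29 (-0.54, adjusted p = 0.0241) in noa1-2 against Col-0, SWEET17 (0.39, adjusted p = 0.0377) in nia1nia2noa1-2 against noa1-2. With array weights by genotype, calls were 1294 raised and 1399 lowered for nia1nia2noa1-2 against Col-0, 907 raised and 868 lowered for noa1-2 against Col-0, 153 raised and 101 lowered for nia1nia2noa1-2 against nia1nia2, 1162 raised and 1271 lowered for nia1nia2noa1-2 against noa1-2. With array weights by genotype limma calls were lost for SWEET1 (0.48, adjusted p = 0.071) and SWEET17 (0.59, adjusted p = 0.0561) in nia1nia2 against Col-0, SWEET1 (0.47, adjusted p = 0.0734) and SWEET17 (0.48, adjusted p = 0.111) in nia1nia2 against noa1-2. With array weights by genotype limma calls were gained for SWEET17 (0.50, adjusted p = 0.00711) in nia1nia2noa1-2 against Col-0, SWEET4 (-0.84, adjusted p = 0.00646) in noa1-2 against Col-0, SWEET17 (0.39, adjusted p = 0.0264) in nia1nia2noa1-2 against noa1-2. With each array centred on its median, calls were other sugar genes 5 raised for nia1nia2 against Col-0, 390 raised and 604 lowered for nia1nia2noa1-2 against nia1nia2, 115 raised and 285 lowered for the departure from additivity. With each array centred on its median limma calls were lost for SWEET1 (0.43, adjusted p = 0.0801) in nia1nia2noa1-2 against noa1-2. With each array centred on its median the sign turned, with no call, for LEA4-5 (0.04) and TMT1 (0.05) in noa1-2 against Col-0, SWEET1 (-0.07) in nia1nia2noa1-2 against nia1nia2, SWEET1 (-0.14) in the departure from additivity. With quantile normalization applied again, calls were 139 lowered for the departure from additivity. With quantile normalization applied again limma calls were lost for SWEET1 (0.47, adjusted p = 0.0597) in nia1nia2noa1-2 against noa1-2. With quantile normalization applied again the sign turned, with no call, for LEA4-5 (0.03) and TMT1 (0.02) in noa1-2 against Col-0, SWEET1 (-0.02) in nia1nia2noa1-2 against nia1nia2, SWEET1 (-0.07) in the departure from additivity. With the replicate number as a block, calls were 1135 raised and 1193 lowered for nia1nia2noa1-2 against Col-0, 651 raised and 548 lowered for noa1-2 against Col-0, 1172 raised for nia1nia2noa1-2 against nia1nia2, 1000 lowered for nia1nia2noa1-2 against noa1-2, 437 raised and 189 lowered for the departure from additivity. With the replicate number as a block limma calls were gained for SWEET17 (0.50, adjusted p = 0.00986) in nia1nia2noa1-2 against Col-0, SWEET4 (-0.84, adjusted p = 0.0248) in noa1-2 against Col-0, SWEET17 (0.39, adjusted p = 0.036) in nia1nia2noa1-2 against noa1-2, SWEET11 (-0.59, adjusted p = 0.0429) in the departure from additivity. With the replicate number as a block the sign turned, with no call, for SWEET1 (-0.01) and SWEET11 (-0.02) and SAG29 (-0.28) in nia1nia2noa1-2 against nia1nia2, SWEET1 (-0.03) in the departure from additivity. With a trend in eBayes limma calls were gained for SWEET17 (0.50, adjusted p = 0.049) in nia1nia2noa1-2 against Col-0.

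Leaving out each array in turn moved the calls over the ranges that follow, in nia1nia2noa1-2 against Col-0, raised 434 to 1148 and lowered 406 to 1194, noa1-2 against Col-0, raised 164 to 670 and lowered 105 to 541, the departure from additivity, raised 49 to 594 and lowered 26 to 232, nia1nia2 against Col-0, other sugar genes lowered 1 to 2, nia1nia2noa1-2 against nia1nia2, raised 295 to 1329 and lowered 179 to 560, nia1nia2noa1-2 against noa1-2, lowered 349 to 991 and raised 416 to 965. SWEET1 ranged over 0.47 to 0.58 in nia1nia2noa1-2 against Col-0, 0.30 to 0.58 in nia1nia2 against Col-0, -0.08 to 0.09 in noa1-2 against Col-0, 0.42 to 0.60 in nia1nia2noa1-2 against noa1-2, -0.08 to 0.20 in the departure from additivity, 0.28 to 0.57 in nia1nia2 against noa1-2, -0.07 to 0.22 in nia1nia2noa1-2 against nia1nia2. SWEET11 ranged over 0.48 to 0.65 in noa1-2 against Col-0, -0.02 to 0.22 in nia1nia2 against noa1-2, -0.05 to 0.19 in nia1nia2noa1-2 against nia1nia2, -0.61 to -0.37 in the departure from additivity. COR15A ranged over -0.33 to 0.20 in nia1nia2noa1-2 against Col-0. SFP2 ranged over -0.08 to 0.31 in nia1nia2noa1-2 against Col-0. ATSPS4F ranged over -0.07 to 0.21 in noa1-2 against Col-0. TMT1 ranged over -0.12 to 0.06 in noa1-2 against Col-0. SWEET17 ranged over 0.36 to 0.67 in nia1nia2 against noa1-2, 0.47 to 0.79 in nia1nia2 against Col-0, 0.41 to 0.63 in nia1nia2noa1-2 against Col-0, -0.28 to 0.04 in nia1nia2noa1-2 against nia1nia2, 0.29 to 0.51 in nia1nia2noa1-2 against noa1-2. SFP1 ranged over -0.06 to 0.27 in noa1-2 against Col-0. SWEET4 ranged over -0.98 to -0.66 in noa1-2 against Col-0, 0.96 to 1.33 in nia1nia2noa1-2 against noa1-2. SAG29 ranged over 0.31 to 1.28 in the departure from additivity, -0.23 to 0.74 in nia1nia2noa1-2 against nia1nia2. LEA4-5 ranged over -0.15 to 0.07 in noa1-2 against Col-0. The highest counts came without nia1nia2 replicate 4 (1148 raised and 1194 lowered in nia1nia2noa1-2 against Col-0, 670 and 541 in noa1-2 against Col-0) and the lowest without nia1nia2noa1-2 replicate 2 (434 and 406) and noa1-2 replicate 2 (164 and 105). SWEET1 lost its call in nia1nia2noa1-2 against Col-0 without Col-0 replicate 1 or 2 or any nia1nia2noa1-2 replicate, in nia1nia2 against Col-0 without Col-0 replicate 1 or 2 or nia1nia2 replicate 2, in nia1nia2noa1-2 against noa1-2 without any nia1nia2noa1-2 replicate, noa1-2 replicate 1 or 3 or Col-0 replicate 2, and in nia1nia2 against noa1-2 without nia1nia2 replicate 2 or noa1-2 replicate 1 or 3. SWEET17 lost it in nia1nia2 against noa1-2 without nia1nia2 replicate 2 or 3, noa1-2 replicate 1 or 2, Col-0 replicate 2 or nia1nia2noa1-2 replicate 1, and gained it in nia1nia2noa1-2 against noa1-2 without nia1nia2 replicate 4. SWEET4 lost it in nia1nia2noa1-2 against noa1-2 without nia1nia2noa1-2 replicate 2 (0.96) or noa1-2 replicate 3 (1.00).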
